A study of Coturnix japonica with 144 samples.

Results

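A set of 150 genes, of the 21561 in the count table, was more abundant in the hypothalamus and in the BnST (the bed nucleus of the stria terminalis) of Japanese quail than in the Tn (nucleus taeniae). The genes were chosen by their median CPM over birds, with 0.1 added to each median. CPM is a gene's count scaled to the total count of its library. Both the hypothalamus and the BnST median had to reach 2 CPM, to lie within a factor of 2 of each other, and to be at least 2 times the Tn median. In all, 155 genes met these thresholds, none of them a gene that the study lists as changed by treatment or with brooding, and the 150 with the largest value of the smaller of the 2 folds over Tn were kept. The contrast between regions chose the members, so every value that sets the hypothalamus or the BnST against the Tn is a description and was not tested.

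The hypothalamus holds the preoptic and tuberal cell groups that govern reproduction, feeding and parental behaviour. The BnST is a subpallial nucleus of the extended amygdala that is strongly connected with the hypothalamus. The Tn is regarded as the avian counterpart of part of the medial amygdala. In birds, all of them belong to the network of regions active in social behaviour.

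RNA was sequenced from punches of the 3 regions in 48 adult virgin quail kept on short days, which holds both sexes in a reproductively quiescent state, giving 144 libraries. In the sensitization treatment, 24 birds (11 females and 13 males) spent a night enclosed with chicks. The 24 control birds (16 females and 8 males) were enclosed without them. All birds then met unfamiliar chicks before the brains were taken. The labels also give a response class, which is R for 17 and NR for 6 sensitized birds, S for 5 and NS for 17 control birds, and not given for 3 birds. The labels do not spell out these letters. For the comparison by class, R was joined with S and NR with NS, as a stand-in for brooding duration, which the labels do not give. This assumes that R and S mark birds that brooded. Elsewhere the letters are used as they stand.

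Total counts per library lay between 9664414 and 19640873. The libraries labelled as male bird 17 did not follow that label. Over the 542 genes that were lower in females in the hypothalamus, the mean log2 CPM of bird 17 was 3.89 in the hypothalamus, against 4.33 to 4.45 in the other males and 3.70 to 3.89 in the females, and it was also within the female range in the BnST and the Tn. Bird 49 (male, sensitization treatment, class R) gave a BnST library that lay far from the others, with a score of 89.0 in size on principal component 1, where no other bird exceeded 35.8. Some results are also given without these birds. The correlations between members within a region are given with all birds only. The count table names genes by Ensembl identifier only, and none of the 150 could be paired with a symbol, so members are given by identifier, no role can be given for them, and the regions could not be checked against marker genes. Birds are also numbered in 2 runs, 1 to 20 and 21 to 50, which differ in their make-up by sex (7 females and 12 males, against 20 females and 9 males). The labels do not call these runs batches. In bulk punches, fewer cells of a type and less RNA per cell cannot be told apart.

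The member furthest above the Tn was ENSCJPG00005001974. Its level was 17.6 CPM in the lowest, 33.1 CPM in the median and 52.2 CPM in the highest hypothalamus library. In the BnST the same values were 3.42, 25.8 and 77.1 CPM, and in the Tn they were 0, 0.366 and 6.50 CPM. Every hypothalamus library was above every Tn library, and within each of the 48 birds both the hypothalamus and the BnST were above the Tn. BnST and Tn libraries of different birds overlapped. In the Tn this gene had a median of 5 reads and no read in 2 libraries. With 0.1 added, its median was 71.2 times the Tn median in the hypothalamus and 55.5 times in the BnST.

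Only ENSCJPG00005008213 and ENSCJPG00005012176 also had a smaller fold of at least 10, which was 12.5 for the first of them. ENSCJPG00005008213 ran from 2.85 to 11.7 CPM in the hypothalamus (median 6.56), from 0.0876 to 16.9 CPM in the BnST (median 4.61) and from 0 to 5.60 CPM in the Tn (median 0.276), with 10 Tn libraries at 0 reads. The fifth in rank, ENSCJPG00005010147, was more abundant. It had 98.0, 127 and 158 CPM (lowest, median and highest) in the hypothalamus, 85.6, 146 and 203 CPM in the BnST and 4.87, 17.5 and 90.4 CPM in the Tn. Its lowest hypothalamus library was above its highest Tn library, whereas its BnST and Tn libraries met at the ends of their ranges.

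**Figure D1:**
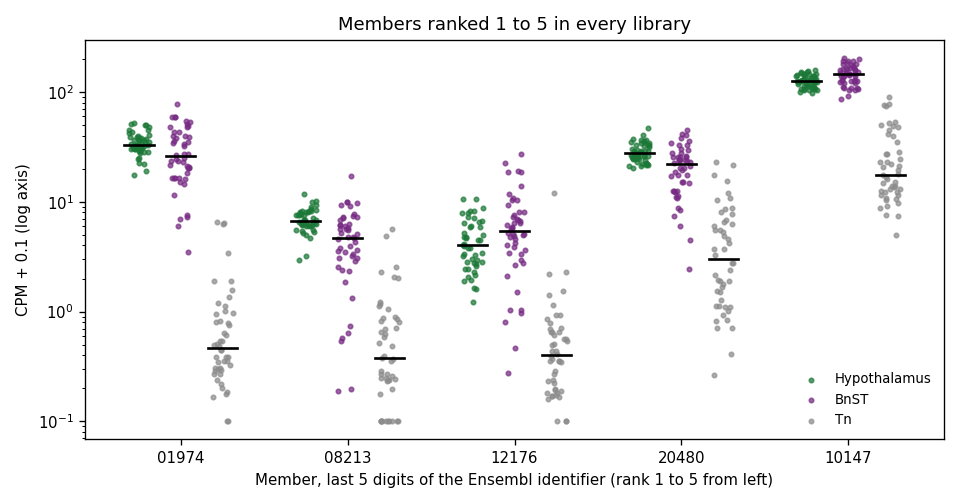
CPM plus 0.1 (log axis) of the members ranked 1 to 5 in each of the 48 birds, with the hypothalamus, BnST and Tn side by side and a line at each median. The hypothalamus points are the tightest, and single BnST libraries reach down into the range of the Tn, as in ENSCJPG00005008213, where the lowest BnST library is at 0.0876 CPM.

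Folds were modest in most members. The smaller fold lay from 2 to under 3 in 104 members, from 3 to under 4 in 26, from 4 to under 5 in 9 and from 5 to under 10 in 8. Its median was 2.51, against 0.989 over the 12908 genes with medians of at least 2 CPM in the hypothalamus and the BnST. At the edge of the list, ENSCJPG00005017360 and ENSCJPG00005005284 had smaller folds of 2.02 and 2.02, and just outside it ENSCJPG00005005922 and ENSCJPG00005015377 had 2.02 and 2.01. The hypothalamus median was above the BnST median in 99 members and below it in 51.

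**Figure D2:**
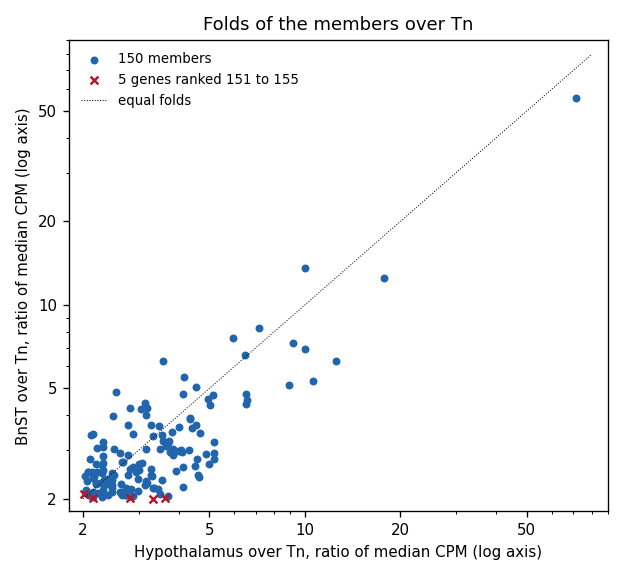
Ratio of the hypothalamus median to the Tn median (x) and of the BnST median to the Tn median (y), both on log axes, for the 150 members and the 5 genes ranked just below them. Most points lie under 5 on both axes, and the point at the upper right is ENSCJPG00005001974, at 71.2 and 55.5.

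The coefficient of variation of CPM over the 48 birds had a median over members of 24.5% for hypothalamus libraries, 40.6% for BnST libraries and 57.6% for Tn libraries. Over the same 12908 genes as for the folds it was 14.5%, 17.3% and 15.3% in the same order, without matching on level. The members varied more between birds than the typical gene, least in the hypothalamus and most in the Tn. The rule made them least abundant in the Tn, with a median level of 3.52 CPM, against 12.7 CPM (hypothalamus) and 11.2 CPM (BnST). How far the order of the regions follows from level was not tested. Within birds, the hypothalamus was above the Tn in all 48 birds for 71 members and the BnST above the Tn in all 48 for 22 members. Both held in all birds for 15 members, in a median of 45 birds and in no fewer than 32. Every hypothalamus library was above every Tn library for 18 members, whereas this held for the BnST in 0 members. These counts within and between birds were made for the members only, which were chosen for medians above the Tn. The shares over all genes were not computed, so the counts are descriptions.

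Together the members took 0.446% to 0.575% of the counts of a hypothalamus library (median 0.519%). They took 0.266% to 0.627% of a BnST library (median 0.487%) and 0.109% to 0.338% of a Tn library (median 0.190%). The hypothalamus and the BnST share were above the Tn share in 48 of 48 birds, and the hypothalamus share was above the BnST share in 32. The Tn share was highest in birds 12, 19, 14 and 26, at 0.338%, 0.333%, 0.325% and 0.310%. The BnST share was lowest in birds 13 and 38, at 0.266% and 0.274%, and highest in bird 49. Across birds the shares of the 3 regions had Pearson r of 0.24 between hypothalamus and BnST, -0.12 between hypothalamus and Tn and -0.10 between BnST and Tn, given as a description over 48 birds.

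**Figure D3:**
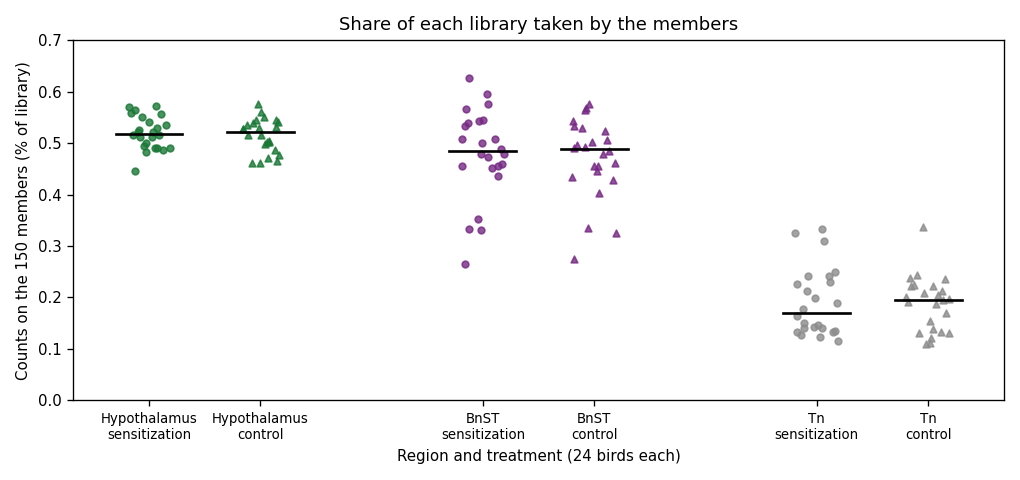
Counts on the 150 members as a percentage of all counts in each library, by region and treatment (24 birds each, line at the median). The Tn libraries, from 0.109% to 0.338%, overlap with the lowest BnST libraries but lie below all hypothalamus libraries, and the points of sensitized and control birds overlap in each region.

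Pairs of members were more often correlated across birds than pairs of all genes in the BnST and the Tn, whereas in the hypothalamus the shares were close. Over the 11175 pairs of members, the correlation of log2 CPM across birds was at least 0.5 for 3.88% of pairs in hypothalamus libraries, for 17.2% in BnST libraries and for 21.8% in Tn libraries. Over all pairs of the 12929 genes whose hypothalamus and BnST medians met the minimum after 0.1 was added, the figures were 3.08%, 5.61% and 2.14%. In the hypothalamus the highest number of partners at an r of at least 0.8 was 11. It was shared by ENSCJPG00005012289, ENSCJPG00005016601, ENSCJPG00005019810, ENSCJPG00005008351, ENSCJPG00005016068 and ENSCJPG00005017360. A group was formed from ENSCJPG00005012289, the highest of them in rank, and its 11 partners. The members tied with it were all among these partners, such as ENSCJPG00005016601 (r = 0.95) and ENSCJPG00005019810 (r = 0.94). This group of 12 had a median pairwise r of 0.85 in the hypothalamus, where it was found, and of 0.64 (BnST) and 0.65 (Tn) elsewhere. In the BnST and the Tn the highest counts belonged to other members. ENSCJPG00005020557, ENSCJPG00005012359, ENSCJPG00005012452 and ENSCJPG00005014360 shared a count of 15 in the BnST, and ENSCJPG00005013758 had 16 in the Tn. The BnST group was formed around ENSCJPG00005020557, the highest in rank of those tied, and the others were among its partners. The group around ENSCJPG00005020557 had a median pairwise r of 0.79 in the BnST, 0.69 in the Tn and 0.18 in the hypothalamus. These groups were picked for their correlations, and the values are descriptions.

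Whether a bird with a high level in the hypothalamus also had a high level in the BnST was tested for each gene over 48 birds. The rule did not use this, since it took only medians over birds. Of the 150 members, 40 were correlated at an adjusted p under 0.05 (26.7%), against 45.8% of the 13550 genes tested (permutation of birds, 100000 resamples, two-sided, Benjamini-Hochberg over all genes tested). Of these members 35 were positively correlated, against 45.7% of all genes, and 5 negatively, against 0.192%. The median r was 0.13 for the members and 0.30 for all genes tested. Without bird 49, 39 members were correlated (26%), against 52.9% of all genes, with a median r of 0.12 and 0.34.

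ENSCJPG00005019084 had the highest correlation. It ran from 1.65 to 8.06 CPM in the hypothalamus (median 4.82) and from 1.01 to 11.3 CPM in the BnST (median 4.33), and birds at the low end in one region were at the low end in the other, such as bird 42 with 1.65 and 1.11 CPM. Its Pearson r was 0.83 and its Spearman rho 0.77 (both permutation p = 1e-05, the smallest that 100000 resamples can give, adjusted p = 7.09e-05 and 7.07e-05). Without the 2 birds farthest from the hypothalamus median r was 0.80, and it was 0.89 in birds 1 to 20 and 0.79 in birds 21 to 50. ENSCJPG00005020728, ENSCJPG00005020241, ENSCJPG00005013760 and ENSCJPG00005019815 followed with r of 0.77, 0.76, 0.66 and 0.60 and rho of 0.71, 0.71, 0.70 and 0.55.

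The lowest Pearson r belonged to ENSCJPG00005001974, the member furthest above the Tn. By Spearman rho ENSCJPG00005019825 was lower, at -0.38. For ENSCJPG00005001974, bird 44 had the second lowest hypothalamus level (18.9 CPM) and the highest BnST level (77.1 CPM). The Pearson r of ENSCJPG00005001974 was -0.43 (permutation p = 0.00234, adjusted p = 0.00754) and its Spearman rho was -0.37 (permutation p = 0.011, adjusted p = 0.0248). Without the 2 birds farthest from the median r was -0.34. By run of bird numbers, r was -0.61 in birds 21 to 50 (adjusted p = 0.00427) and -0.07 in birds 1 to 20 (adjusted p = 0.872, permutation tests), and the difference between the runs was not tested.

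**Figure D4:**
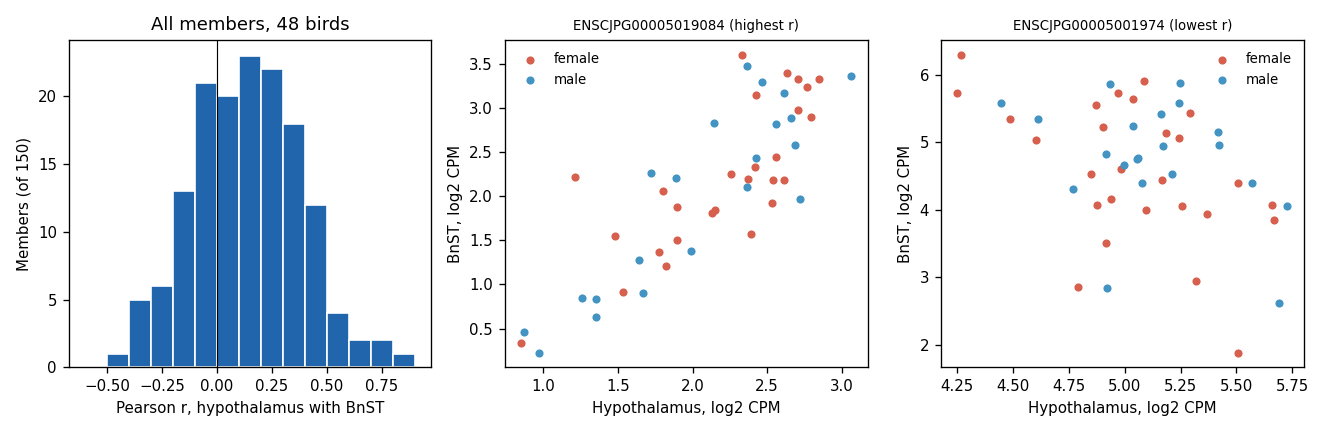
Left, number of members by Pearson r between hypothalamus and BnST over 48 birds. Middle and right, log2 CPM of each bird in the hypothalamus (x) and the BnST (y) for ENSCJPG00005019084 (r = 0.83) and ENSCJPG00005001974 (r = -0.43), with females and males in different colours.

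Sex was compared as female minus male, with treatment as a covariate. In the hypothalamus 4 of the 150 members differed (2.67%), against 5.18% of the 14830 genes tested (edgeR quasi-likelihood test, Benjamini-Hochberg adjusted p under 0.05). All 4 were lower in females and 0 higher, against 3.65% and 1.52% of all genes. Before adjustment 18 members had a p under 0.05, against 16.5% of all genes. ENSCJPG00005001372 had 9.86, 15.1 and 18.5 CPM (lowest, median and highest) in females, against 13.4, 20.3 and 26.4 CPM in males. The ranges overlapped, and the lowest male was bird 17. The log2 difference was -0.46 ± 0.07 (SE, adjusted p = 4.44e-07, edgeR) and it was -0.48 without bird 17. ENSCJPG00005009653 had 9.39, 11.8 and 15.6 CPM in females, against 10.2, 14.4 and 19.4 CPM in males, with bird 17 again the lowest male. Its log2 difference was -0.30 ± 0.06 (SE, adjusted p = 0.00016, edgeR) and -0.32 without bird 17. Within birds 21 to 50 both passed, with log2 differences of -0.53 and -0.35, whereas in birds 1 to 20 the differences were -0.42 and -0.30 with adjusted p of 0.101 and 0.201 (edgeR).

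In the Tn, 147 members passed the filter on low counts and 4 of them differed, against 4.07% of the 14634 genes tested. Of these, 1 was higher and 3 were lower in females, against 0.683% and 3.39% of all genes, and 18 members had an unadjusted p under 0.05, against 10.4%. ENSCJPG00005001372 had 1.77, 3.35 and 6.28 CPM in females, against 2.51, 4.71 and 7.97 CPM in males (log2 difference -0.44 ± 0.13 SE, adjusted p = 0.0260, edgeR). Its adjusted p was 0.0626 with limma-voom, and with edgeR 0.329 in birds 1 to 20 and 0.2205 in birds 21 to 50, where the log2 differences were -0.52 and -0.47. ENSCJPG00005012161 had 0.264, 0.838 and 3.13 CPM in females, against 0.0686, 0.523 and 2.03 CPM in males (log2 difference 0.95 ± 0.28 SE, adjusted p = 0.0384, edgeR). Its adjusted p with edgeR was 0.0600 without bird 49, 0.273 with the run of bird numbers in the fit and 0.262 without the treatment covariate. With limma-voom it was 0.104. The log2 difference was 0.29 in birds 1 to 20 and 1.02 in birds 21 to 50. In all, 114 of the 147 members had a lower fitted level in females and the median log2 difference was -0.14, against 0.01 over all genes tested. That median was -0.38 in birds 1 to 20 and 0.14 in birds 21 to 50. The 114 were not separate observations, as 21.8% of member pairs had an r of at least 0.5 across birds in the Tn. The share of all genes with a lower level in females is not given here.

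In the BnST, 0 of 150 members differed by sex with edgeR, DESeq2 or limma-voom, against 3.71% of the 14748 genes tested, and 13 had an unadjusted p under 0.05 with edgeR, against 9.66%. Within birds 1 to 20 edgeR called 4 members (3 higher and 1 lower in females), against 479 of 14811 genes, and within birds 21 to 50 it called 1, lower in females, against 381 of 14732 genes. Over all birds, ENSCJPG00005001372 had 2.10, 7.87 and 14.6 CPM in the BnST of females, against 2.48, 9.97 and 19.2 CPM in males (log2 difference -0.36 ± 0.17 SE, adjusted p = 0.455, edgeR). The difference between the sex effects of the hypothalamus and the BnST was tested directly, and 0 of 150 members passed with edgeR (9 at an unadjusted p under 0.05, against 4.04% of all genes), against 0.00% of the 15191 genes tested. That fit took the hypothalamus and BnST libraries of a bird as separate, and with the bird as a block 0 members passed as well. A smaller sex effect in the BnST was therefore not shown.

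**Figure D5:**
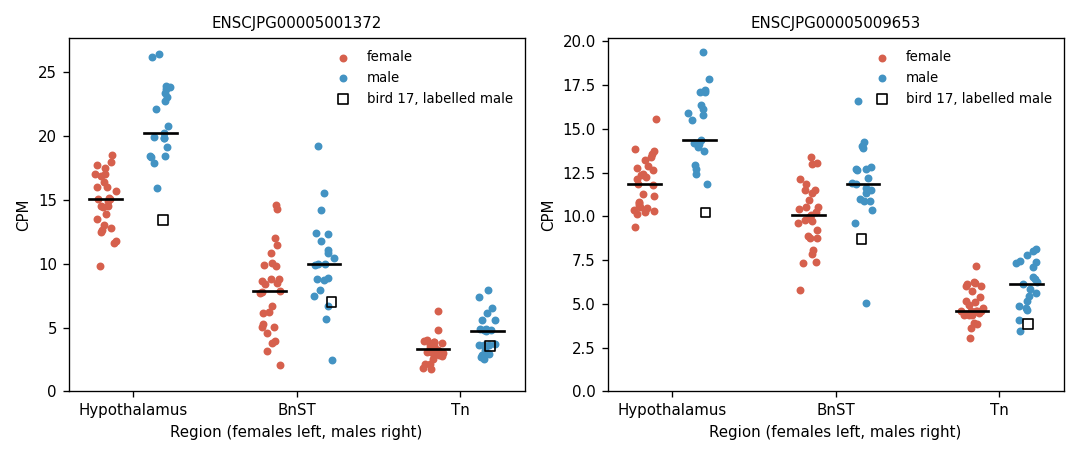
CPM of ENSCJPG00005001372 (left) and ENSCJPG00005009653 (right) by region, with females left and males right in each pair, a line at each median, and the libraries labelled as male bird 17 as open squares. In the hypothalamus the female medians are 15.1 and 11.8 CPM, against male medians of 20.3 and 14.4 CPM.

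Sensitized and control birds did not differ in any member at an adjusted p under 0.05. For hypothalamus and BnST the count was 0 of 150 and for the Tn it was 0 of 140 with edgeR, and also 0 with DESeq2 and limma-voom, against 0.0207%, 0.0556% and 0.00% of all genes tested with edgeR. At an unadjusted p under 0.05 edgeR gave 7, 8 and 7 members, against 3.69%, 5.53% and 4.76% of all genes. All 8 of these BnST members and all 7 of these Tn members were higher in sensitized birds. For BnST libraries the fitted level was higher in sensitized birds in 101 members and lower in 49. The median log2 difference was 0.066, against 0.004 over all genes tested. For the Tn the counts were 95 and 45 (median 0.057, against 0.004), and for the hypothalamus 79 and 71 (0.005, against -0.002). Members were partly correlated across birds, and the direction was not tested. The member share of the counts had a median of 0.518% in sensitized birds and 0.522% in control birds for hypothalamus libraries. For BnST libraries it was 0.484% in sensitized and 0.488% in control birds, and for Tn libraries 0.170% in sensitized and 0.196% in control birds. The Tn means were in the other order, at 0.191% in sensitized and 0.188% in control birds. ENSCJPG00005017843 had 10.7, 17.2 and 42.2 CPM in the hypothalamus of sensitized birds, against 9.02, 14.4 and 28.2 CPM in control birds (log2 difference 0.36 ± 0.14 SE, adjusted p = 0.9997, edgeR). The treatment effect did not differ between the hypothalamus and the BnST in any of the 150 members (edgeR, 2 at an unadjusted p under 0.05, against 1.58% of all genes), against 0.00% of the 14899 genes tested. That fit took the libraries of a bird as separate, and the result was the same with the bird as a block.

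Birds of class R or S were compared with birds of class NR or NS. No member passed in the hypothalamus (0 of 150), the BnST (0 of 150) or the Tn (0 of 141) with edgeR, DESeq2 or limma-voom, against 0.0621%, 0.00% and 0.00% of all genes tested with edgeR. At an unadjusted p under 0.05 edgeR gave 33 of the 150 members in the hypothalamus, against 9.97% of all genes. It gave 9 members for the BnST, against 3.65%, and 9 for the Tn, against 3.86%. Of the 33, 6 were higher and 27 lower in R or S birds, and the lowest adjusted p among them was 0.338. The 27 were not separate observations, as their median pairwise r across birds was 0.52, and 11 of the 12 members of the group around ENSCJPG00005012289 were among them. ENSCJPG00005012289 had 0.668, 11.9 and 39.1 CPM in R or S birds, against 1.72, 18.2 and 50.1 CPM in NR or NS birds (log2 difference -0.76 ± 0.32 SE, adjusted p = 0.438, edgeR). ENSCJPG00005014360 had 111, 119 and 142 CPM in R or S birds, against 93.2, 113 and 133 CPM in NR or NS birds (log2 difference 0.12 ± 0.03 SE, adjusted p = 0.338, edgeR). Class also went with treatment: R or S birds were 17 sensitized and 5 control, and NR or NS birds 6 sensitized and 17 control. With treatment in the fit, 31 members had an unadjusted p under 0.05 (4 higher and 27 lower, edgeR), and 28 of them were among the 33. Without bird 49 there were 32 (3 higher and 29 lower). The shares of all genes in these 2 fits are not given here. The classes were also spread unevenly over the bird numbers, with 12 R or S and 5 NR or NS birds in 1 to 20, against 10 and 18 in 21 to 50. With the run of bird numbers in the fit, 26 members had an unadjusted p under 0.05 (8 higher and 18 lower, against 6.50% of all genes), and 21 of them were among the 33. In birds 1 to 20 alone there were 10 (4 higher and 6 lower, against 6.48% of all genes), of which 3 were among the 33. In birds 21 to 50 alone there were 14 (8 higher and 6 lower, against 4.16%), of which 9 were among the 33. The excess of lower members, 27 against 6 over all birds, was thus not seen in birds 21 to 50. In birds 1 to 20 it was only 6 against 4, and each run held fewer birds.

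The thresholds of the rule were met within most groups of birds. With medians taken over females alone 138 of the 150 members met them, against 113 over males alone. Over sensitized birds 133 met them, against 125 over control birds. By class the counts were 119 for R, 124 for NR, 115 for S and 109 for NS, and by bird number 104 for birds 1 to 20 and 139 for birds 21 to 50. Both medians were above the Tn median for all 150 members in each of these groups except class S, where this held for 149. The members were chosen by medians over these same birds, so agreement within groups is partly built in and these counts are descriptions. Larger groups weigh more in those medians, with 27 females against 21 males, and 29 birds in 21 to 50 against 19 in 1 to 20.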

How the data were processed

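The authors mapped the reads with HISAT2 and counted them per gene with HTSeq, and the deposited table holds raw counts without normalization. The strand setting is not given in the sources used here. Base calling by CASAVA 1.8.2 is listed in the submitters' processing notes. Groups came from the labels. CPM was count over library total. The members, the lists and the named members were chosen with earlier results of these data known. Named were the members at both ends of the rank and those with the smallest p or highest r in each comparison. The lists of marker genes could not be matched to identifiers. Whole tables were fitted with edgeR 4.0.16 (TMM, filterByExpr with a minimum count of 10, robust quasi-likelihood), with DESeq2 1.42.0 and limma 3.58.1 as alternatives, in R 4.3.3. In simulated counts for the hypothalamus sex comparison (13838 genes), 90.2% of log2 changes of 0.5, put into genes drawn at random, were recovered. Of the 204 calls, 15 were false. Recovery was not simulated for the members, which varied more than the typical gene, nor for the BnST or the Tn. Same-numbered samples come from the same bird. The median r between hypothalamus and BnST over genes was 0.30. No pair of libraries within a region was identical. Within a region each bird is 1 replicate, and p-values measure the spread between birds. The main fits of a difference between regions had no term for the bird and took its libraries as separate. Only the fits with the bird as a block paired them.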

Additional observations from a re-analysis of the deposited data

How the results depend on the processing

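The fits were repeated with DESeq2 size factors, no filter on low counts, DESeq2, limma-voom, other covariates, the bird as a replicate block, and leaving out bird 17 or bird 49. Separate fits within birds 1 to 20 and within birds 21 to 50 were chosen after seeing the data for sex, treatment and class. The 4 members lower in females in the hypothalamus were called under each of these that was run for sex, whereas the count was 0 in birds 1 to 20 and 4 in birds 21 to 50, of which 2 were the same members. In the Tn the count of 4 became 2 without bird 49, 1 with limma-voom, 2 with the run of bird numbers added, and 0 within each run. The shares of all genes called in these hypothalamus and Tn fits are not given here, and each run held fewer birds. Whether the members or the number of calls over all genes changed cannot be told from these counts. The median log2 difference of the members there turned to 0.14 in birds 21 to 50. In the BnST the count of 0 by sex became 4 in birds 1 to 20, against 479 of 14811 genes, and 1 in birds 21 to 50, against 381 of 14732 genes. The count of 40 correlated members was 39 by Spearman rho, against 50.9% of all genes, and 36 of these members were positive. With residuals after sex, treatment and the run of bird numbers it was 32, against 35.1%, with 26 positive. It was 9 in birds 1 to 20 (against 21.2% of all genes), with 8 positive. In birds 21 to 50 it was 22 (against 25.6%), with 19 positive, and fewer birds entered each run. With the bird as a replicate block, 0 members differed between regions in the sex or the treatment effect, as without it. The treatment and class counts of 0 held under all alternatives run. The number of genes that met the rule was 155, and 124 with means in place of medians, of which 114 were members. Without bird 49 it was 153, and 146 members were kept in the list. In the Tn, medians of 5 reads or fewer stand behind the levels of ENSCJPG00005001974 and ENSCJPG00005008213, so their folds over the Tn are imprecise. With 0.1 added, their Tn medians were 0.466 and 0.376 CPM. The medians of ENSCJPG00005012176 and ENSCJPG00005003113 were similarly low, at 0.400 and 0.415 CPM, so the same limit holds for their folds.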
